A study of Mus musculus with 40 samples.

Results

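The data describe 4 genes that are highly expressed in monocytes, F13a1, Ms4a6c, Emb and Cybb, in the bone marrow of mice given the alkylating drug cyclophosphamide. They were picked by gene symbol, with earlier results of these data known. Each symbol belonged to 1 probe of the array, so the 4 genes were 4 of the 13027 genes and unnamed probes that the series measured, and all 4 were among the 5297 that were tested. The mice were of the inbred strain DBA/2, and the tissue is given as bone marrow cells, with no sort named. The 5 control mice were untreated. The other 15 mice had received 83 mg/kg cyclophosphamide into the peritoneal cavity, and their marrow was collected 1 day, 2 days or 5 days afterwards, with 5 mice at each time. Every mouse was measured on 2 arrays, with its own RNA in Cy5 and RNA of a common marrow pool in Cy3, which made 40 arrays. The labels call that pool untreated in one field and treated with the drug in another, which cannot be settled here. The pool cancels in every difference between groups. Mice given an injection without the drug were not analysed here.

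Monocytes are circulating phagocytes made in the marrow from dividing precursors that they share in part with neutrophils. They leave the marrow for the blood and, in tissues, can become macrophages or dendritic cells. Cyclophosphamide is converted in the body to products that cross-link DNA, and dividing blood cell precursors are among the cells it harms most. F13a1 encodes the catalytic subunit of coagulation factor XIII, a transglutaminase that cross-links fibrin; besides monocytes and macrophages, megakaryocytes make it. Ms4a6c encodes a membrane protein of the MS4A family, whose best-known member is the B cell antigen CD20. Emb encodes embigin, an immunoglobulin superfamily protein that accompanies a monocarboxylate transporter to the cell membrane. Cybb encodes gp91phox, the catalytic subunit of the phagocyte NADPH oxidase, which monocytes, macrophages and neutrophils all use to make superoxide. None of the 4 genes is restricted to monocytes.

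In the RefSeq annotation of mouse build GRCm38.p6, F13a1 lies at chr13:36867178-37050244, Ms4a6c at chr19:11469353-11487182, Emb at chr13:117220573-117274415 and Cybb at chrX:9435252-9487766. The promoter windows of 3 of them are shown, because F13a1 and Ms4a6c were both called lower on day 1 and higher on day 5, while Cybb was called lower on day 2. Each window runs from 250 bases before a RefSeq transcript start to 30 bases after it, 5′ to 3′ along the gene, on GRCm38.p6. The windows lie at chr13:37050215-37050494 on the minus strand for F13a1, chr19:11469118-11469397 on the plus strand for Ms4a6c and chrX:9469295-9469574 on the minus strand for Cybb. The Cybb window lies inside the range given above for that gene, and the 5′ end of that range was not searched. Capitals mark GAGGAA, the core letters of sites for the myeloid factor PU.1, or the same letters read on the other strand.
F13a1: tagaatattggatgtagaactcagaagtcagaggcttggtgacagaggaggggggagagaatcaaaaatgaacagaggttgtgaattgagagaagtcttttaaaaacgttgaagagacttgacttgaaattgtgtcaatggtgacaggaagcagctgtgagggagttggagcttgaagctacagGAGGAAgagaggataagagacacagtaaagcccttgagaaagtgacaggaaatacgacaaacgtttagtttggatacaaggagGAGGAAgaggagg
Ms4a6c: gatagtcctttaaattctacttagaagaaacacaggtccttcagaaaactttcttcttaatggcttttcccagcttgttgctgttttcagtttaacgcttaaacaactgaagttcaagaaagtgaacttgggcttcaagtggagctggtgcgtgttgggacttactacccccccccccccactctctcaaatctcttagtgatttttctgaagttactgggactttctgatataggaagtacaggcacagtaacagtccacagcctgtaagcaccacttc
Cybb: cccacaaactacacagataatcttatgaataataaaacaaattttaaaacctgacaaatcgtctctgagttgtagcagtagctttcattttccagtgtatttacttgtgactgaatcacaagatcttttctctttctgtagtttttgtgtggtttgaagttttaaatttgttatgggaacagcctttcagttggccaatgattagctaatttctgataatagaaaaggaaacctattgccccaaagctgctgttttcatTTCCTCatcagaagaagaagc

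The F13a1 window held 2 GAGGAA matches, which begin at positions -66 and 18 counted from the transcript start. A second F13a1 window, chr13:37049184-37049463 on the minus strand, held 1. The Cybb window held 1 match on the other strand, which begins at position 10. The windows of Ms4a6c and of Emb (chr13:117220323-117220602, plus strand) held 0. TTGCNNAA, core letters of C/EBP sites, was searched on both strands too and occurred in 0 of the 5 windows. Of 32851 RefSeq windows of the same length, 26% held GAGGAA and 10.4% held TTGCNNAA, so matches like these are common in promoters at large. The search took these exact letters only, so other forms of the sites were not looked for. Binding of either factor to the windows was not tested.

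The deposited values are log ratios of the mouse over the pool, taken as base 2. A mouse's value is the mean of its 2 arrays, or the value of 1 array where the other was blank. The sources do not give the base; if natural logarithms were deposited, every fold below would be larger. A log ratio compares a gene with itself in the pool, so levels of different genes cannot be set side by side, and differences between groups can. An array gave a value for 4079 to 7977 of its 13443 probes. The tests rest on the mice, 3 to 5 with a value in each group, and their number limits the precision. F13a1 and Emb had values on 40 of 40 arrays, Ms4a6c on 38 and Cybb on 32. The 2 arrays of a mouse differed by a median of 0.036 on the log2 scale for F13a1, 0.055 for Ms4a6c, 0.051 for Emb and 0.12 for Cybb, the least precise of the 4. Differences below are limma estimates on the log2 scale ± SE from 1 fit over the 20 mice, with Benjamini-Hochberg adjustment over all 5297, and a gene is called at an adjusted p under 0.05. The moderated F test over the 4 groups called all 4 genes, against 30.7% of everything tested.

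F13a1 had the widest span of group means of the 4. In control mice its log2 ratios were -0.197, -0.356, -0.112, -0.263 and 0.014. One day after the drug they were -0.952, -1.28, -0.871, -1.22 and -1.11. Every day 1 mouse thus lay below every control mouse. On day 2 the ratios were -0.387, -0.162, -0.566, -0.366 and -0.390, a range that overlaps the control range. On day 5 they were 0.559, 0.633, 0.903, 0.583 and 0.621, above every mouse of the other 3 groups.

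F13a1 fell on day 1 by 0.90 ± 0.11 (1.87-fold lower, adjusted p = 2.75e-05, 5 of 5 mice below every control mouse), the second smallest p of the 5297 tested. On day 2 the difference from control was -0.19 ± 0.11 and was not called (adjusted p = 0.217). On day 5 F13a1 rose above control by 0.84 ± 0.11 (1.79-fold, adjusted p = 2.39e-05). Between the treated groups it rose from day 1 to day 2 by 0.71 ± 0.11 (adjusted p = 0.000388) and from day 2 to day 5 by 1.03 ± 0.11 (adjusted p = 4.38e-07). The day 5 mice exceeded the day 1 mice by 1.75 ± 0.11 (3.36-fold, adjusted p = 8.25e-11), the smallest p of all 5297 in that comparison and the third largest rise. In these data the order of F13a1 was day 1, then day 2 and control, which do not differ beyond their spread, then day 5.

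**Figure D1:**
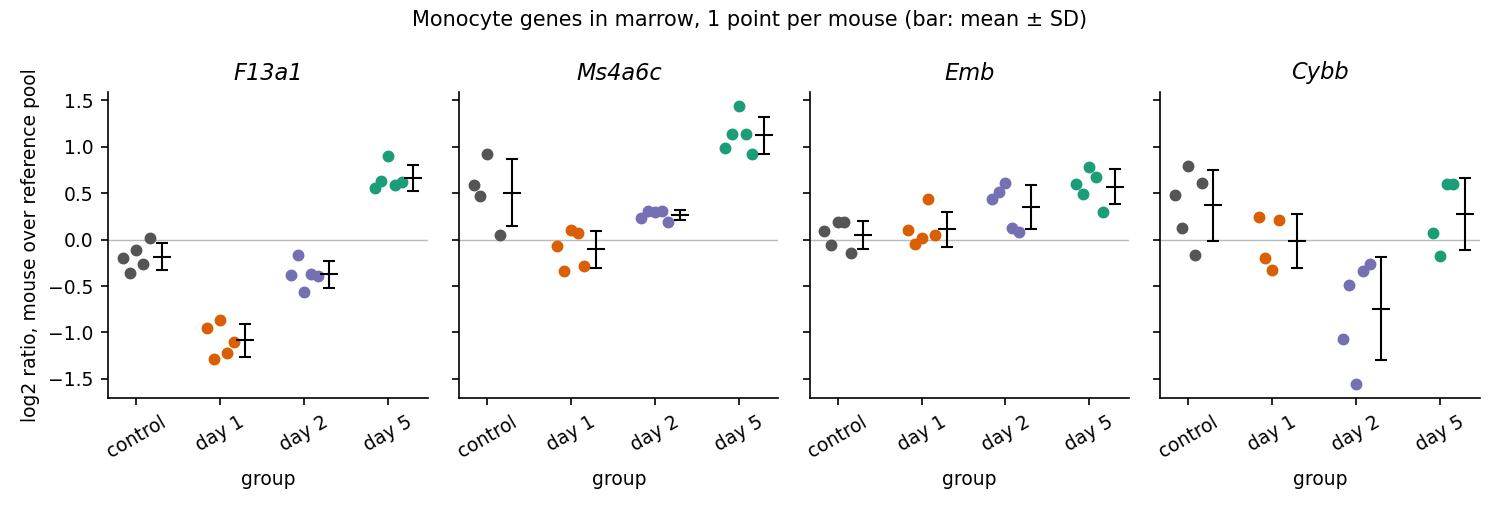
Log2 ratio of each mouse over the reference pool (vertical axis) for F13a1, Ms4a6c, Emb and Cybb by group (horizontal axis), 1 point per mouse, with the group mean ± SD in black. F13a1 and Ms4a6c are lowest on day 1 and highest on day 5, Emb has its lowest mean in control and its highest on day 5, and Cybb is lowest on day 2, with a mean of -0.742 ± 0.553.

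Ms4a6c, too, had its lowest group mean on day 1 and its highest on day 5. Control mice 1, 2, 3 and 5 had log2 ratios of 0.584, 0.474, 0.919 and 0.047, and control mouse 4 had no value. The day 1 mice had -0.073, -0.333, 0.108, 0.070 and -0.282. Control mouse 5 lay inside the day 1 range, while the other 3 control mice lay above it. The day 2 values were 0.237, 0.313, 0.302, 0.305 and 0.189, the tightest group of any of the 4 genes (SD 0.054). The day 5 values were 0.987, 1.14, 1.44, 1.14 and 0.926, each above every control mouse.

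Ms4a6c fell on day 1 by 0.61 ± 0.14 (1.52-fold lower, 5 mice against 4, adjusted p = 0.00564). On day 2 its difference from control was -0.24 ± 0.14 (adjusted p = 0.26, 95% interval -0.53 to 0.057). On day 5 it exceeded control by 0.62 ± 0.14 (1.54-fold, adjusted p = 0.0143). That day 5 call was lost with quantile normalization (0.35, adjusted p = 0.237), in a fit of the 2 groups alone (adjusted p = 0.0546), without control mouse 5 (0.47, adjusted p = 0.0842) and without day 5 mouse 3 (0.54, adjusted p = 0.0517). Between treated groups, the step from day 1 to day 2 was 0.37 ± 0.13 and was not called (adjusted p = 0.172), although the 2 ranges did not overlap. The rise from day 2 to day 5 was 0.86 ± 0.13 (adjusted p = 9.32e-05), and that from day 1 to day 5 was 1.23 ± 0.13 (2.34-fold, adjusted p = 1.33e-06). By group mean Ms4a6c stood in the order day 1, day 2, control, day 5; the neighbours day 1 and day 2, and day 2 and control, did not differ by this test.

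Emb was not called on day 1 and had its highest mean on day 5. Its log2 ratios in control mice were 0.096, -0.054, 0.186, 0.185 and -0.148. On day 1 they were 0.102, -0.045, 0.014, 0.436 and 0.051, within the control range except for mouse 4. On day 2 they split into 3 higher mice (0.441, 0.516 and 0.606) and 2 mice inside the control range (0.126 and 0.085). On day 5 they were 0.599, 0.496, 0.780, 0.679 and 0.293, all above the highest control mouse.

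The Emb difference on day 1 was 0.06 ± 0.12 (95% interval -0.195 to 0.312, adjusted p = 0.778), and without day 1 mouse 4 it was -0.022. On day 2 it was 0.30 ± 0.12 and missed the threshold (adjusted p = 0.0888), with 5 of 5 mice above the control mean of 0.053. On day 5 Emb rose by 0.52 ± 0.12 (1.43-fold, adjusted p = 0.0186). This call was lost without control mouse 2 (adjusted p = 0.0548), control mouse 5 (adjusted p = 0.0683) or day 5 mouse 3 (adjusted p = 0.0662). Day 5 exceeded day 1 by 0.46 ± 0.12 (adjusted p = 0.00818), while the steps from day 1 to day 2 (0.24 ± 0.12, adjusted p = 0.413) and from day 2 to day 5 (0.22 ± 0.12, adjusted p = 0.234) were not called. The group means of Emb rank control, day 1, day 2, day 5, and no neighbouring pair in that order differed by this test.

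Cybb had its lowest group mean on day 2. Its log2 ratios in control mice were 0.486, 0.123, 0.790, -0.163 and 0.611, a wide spread (SD 0.385). Day 1 mice 1 to 4 had 0.247, -0.202, -0.324 and 0.212, and mouse 5 had no value. The day 2 mice had -1.07, -0.485, -1.56, -0.338 and -0.265, all below the lowest control mouse. Day 5 mice 2 to 5 had 0.073, -0.172, 0.595 and 0.599, and mouse 1 had no value. The day 2 mice were therefore below every control and every measured day 5 mouse, and mice 1 and 3 were far below the other 3. The values of control mice 3 and 4, day 1 mouse 1 and day 2 mouse 3 rest on 1 array each.

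Cybb fell on day 2 by 1.11 ± 0.23 (2.16-fold lower, adjusted p = 0.00213). The size of this fall differed between the technical replicates: it was 0.68 with the first alone and 1.35 with the second alone. It was called with each (adjusted p up to 0.0255), but the 2 fits did not cover the same mice. Day 2 mouse 3, the lowest of its group, and control mouse 3, the highest control, had a value on the second array only. Control mouse 4, the lowest control, had one on the first array only. On day 1 the difference was -0.39 ± 0.24 (4 mice against 5, 95% interval -0.887 to 0.115, adjusted p = 0.281). From day 2 to day 5 Cybb rose by 1.02 ± 0.24 (2.02-fold, adjusted p = 0.00434), and on day 5 the difference from control was -0.10 ± 0.24 (95% interval -0.597 to 0.405, adjusted p = 0.969). The remaining steps, day 1 to day 2 (-0.73 ± 0.24, adjusted p = 0.129) and day 1 to day 5 (0.29 ± 0.25, adjusted p = 0.437), were not called. Ranked by mean, Cybb stood in the order day 2, day 1, day 5, control, of which the last 3 did not differ by this test and day 2 was not called lower than day 1.

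In whole marrow, a change in the share of a cell type and a change in RNA per cell cannot be told apart. This holds for a fall and for a rise in any of these genes. Counted together, on day 1 2 of the 4 genes fell and 0 rose, where 19.1% of all tested were called, 8.38% lower and 10.7% higher. On day 2 1 of 4 fell and 0 rose, where 19.2% were called, 9.61% lower and 9.61% higher. On day 5 3 of 4 rose and 0 fell, in a comparison in which only 2.62% of all tested were called, 0.906% higher and 1.72% lower. The median difference from control of the 4 genes was -0.50, -0.21 and 0.57 on days 1, 2 and 5, and that of all tested was -0.01, -0.02 and 0.0078. The comparisons against control share the control mice, so their calls are not independent.

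Between the treated groups, 1 of 4 rose from day 1 to day 2, where 2.1% of all tested were called (1.36% higher, 0.736% lower). From day 2 to day 5 3 of 4 rose, where 20.8% were called (10.3% higher, 10.5% lower). From day 1 to day 5 3 of 4 rose, where 25.3% were called (12.2% higher, 13.1% lower). The ranges of the mice were apart for 1 of 4 genes between control and day 1 (13% of all tested), 1 of 4 between control and day 2 (19%) and 3 of 4 between control and day 5 (6.34%). They were apart for 2 of 4 between day 1 and day 2 (4.34%), 3 of 4 between day 2 and day 5 (18.9%) and 2 of 4 between day 1 and day 5 (16.8%). Since the 4 genes were picked with earlier results known, these shares are a description and no test of the set.

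**Figure D2:**
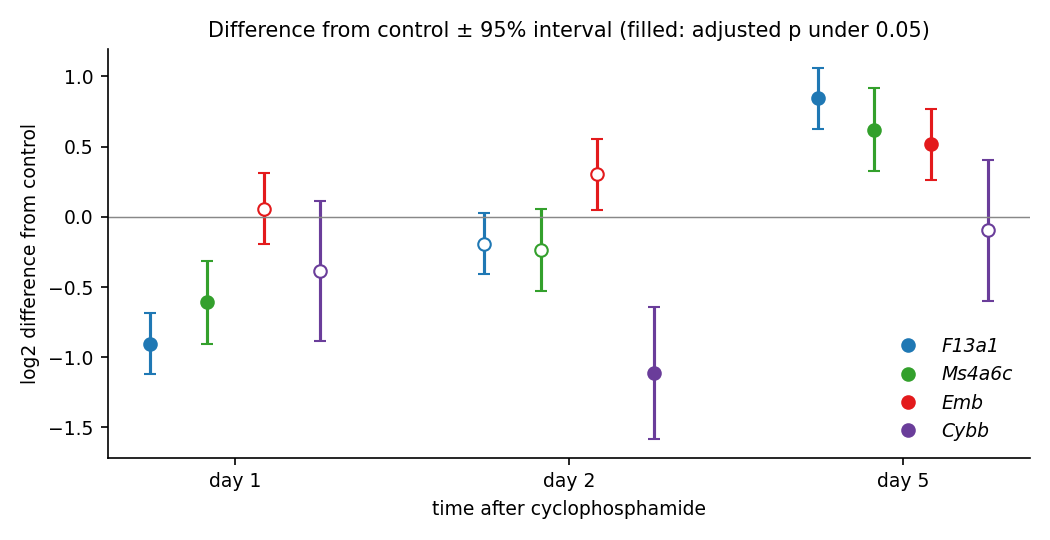
Difference from control on the log2 scale (vertical axis) with its 95% interval for each gene on days 1, 2 and 5 (horizontal axis), with filled points where the limma adjusted p was under 0.05. F13a1 and Ms4a6c are below 0 on day 1 (-0.90 and -0.61), Cybb on day 2 (-1.11), and F13a1, Ms4a6c and Emb are above 0 on day 5 (0.84, 0.62 and 0.52).

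Whether 2 genes moved differently was tested directly, on the difference of their log2 ratios within each mouse. The change of that difference from control was tested for 6 pairs of genes on 3 days, with two-sided exact permutation tests over mice and adjustment over the 18. With 5 mice against 5, 5 against 4 and 4 against 4, the smallest p that such a test can give is 0.00794, 0.0159 and 0.0286. The test passed 8 of the 18, all with an adjusted p of 0.0357 by the exact test. On day 1 F13a1 and Ms4a6c each fell relative to Emb, by 0.96 and 0.70. On day 2 F13a1 and Ms4a6c were again lower relative to Emb, by 0.49 and 0.57.

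The F13a1-minus-Emb difference was -0.236 ± 0.232 in control (SD, n = 5), -1.20 ± 0.287 on day 1 (n = 5) and -0.729 ± 0.287 on day 2 (n = 5), and neither day overlapped control. Cybb fell relative to each of the other 3 genes on day 2, by 0.92 against F13a1, 1.01 against Ms4a6c and 1.41 against Emb. The Emb-minus-Cybb difference rose from -0.317 ± 0.432 in control (SD, n = 5) to 1.10 ± 0.754 on day 2 (n = 5), with 0.35 the lowest day 2 mouse and 0.348 the highest control mouse. On day 5 the F13a1-minus-Cybb difference was 0.96 above that in control, without overlap of the mice.

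F13a1 and Ms4a6c were not found to differ from each other on any day (differences of -0.32, 0.03 and 0.20, exact adjusted p = 0.286, 0.968 and 0.438), which does not show that they act alike. The other pairs that missed the threshold had an adjusted p between 0.103 and 0.968 by the exact test. All 8 passing differences kept their direction with either technical replicate alone, but none passed there (exact adjusted p = 0.0571 to 0.187), and each was lost in 8 to 13 of the 20 fits that left out 1 mouse (exact adjusted p up to 0.0804), where fewer mice also raise the smallest p that can be reached.

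**Figure D3:**
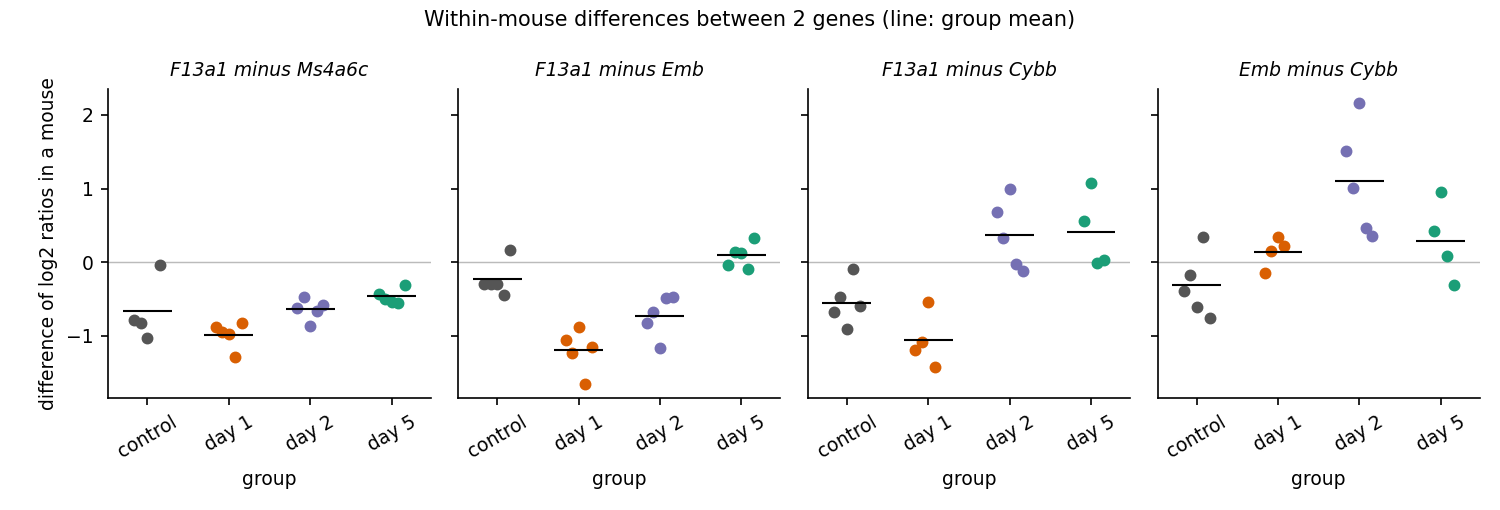
Difference of the log2 ratios of 2 genes within a mouse (vertical axis) by group (horizontal axis), 1 point per mouse with a line at the group mean, for F13a1 minus Ms4a6c, F13a1 minus Emb, F13a1 minus Cybb and Emb minus Cybb. F13a1 minus Emb is lowest on day 1 (mean -1.20), and Emb minus Cybb is highest on day 2 (mean 1.10).

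Other genes used by monocytes were checked with a list of 28, of which 19 were on the array, 13 had any value and 5 could be tested. The markers that define the cell most closely could not be used to check the label. Ly6c1, Ly6c2 and Csf1r were not among the annotated probes, Ccr2 and Klf4 had no value, and Cd14 and Fcgr1 had a value in 1 mouse, Irf8 in 7 and Cx3cr1 in 9. The 5 tested were Vcan (a matrix proteoglycan), Mpeg1 (a pore-forming protein of phagocytes), Ctsc (a lysosomal protease that activates granule enzymes), Sirpa (an inhibitory receptor) and Csf2ra (the GM-CSF receptor alpha chain). None of these 5 was called in any of the 6 comparisons by limma; at an unadjusted p under 0.05 there was 1, Csf2ra, on day 2 against control and against day 1, and 0 in the other 4 comparisons. The smallest p belonged on day 1 to Ctsc (-0.37 ± 0.25, adjusted p = 0.325), on day 2 to Csf2ra (-0.30 ± 0.11, adjusted p = 0.0604) and on day 5 to Vcan (0.30 ± 0.16, 4 mice against 4, adjusted p = 0.511).

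The median difference of these 5 genes from control was 0.02 on day 1, -0.01 on day 2 and 0.07 on day 5. Their mean level per mouse, relative to control, ran from -0.124 to 0.12 in control mice, -0.179 to 0.085 on day 1, -0.276 to 0.111 on day 2 and -0.194 to 0.277 on day 5. These ranges of a mean over 5 genes overlap. Of the 4 genes taken singly, F13a1 did not overlap control on day 1, while Ms4a6c, Emb and Cybb did. On day 5 F13a1, Ms4a6c and Emb did not overlap control, while Cybb did. Ranges were apart in 13% of all tested on day 1 and in 6.34% on day 5. With the defining markers unmeasured, the data describe these 4 genes and not the number of monocytes. The counts from the lists below stand beside the shares of all tested called against control. These were 8.38% lower and 10.7% higher on day 1, and 9.61% each way on day 2. On day 5 they were 1.72% lower and 0.906% higher. The lists are short and were chosen with earlier results known, so their counts are a description.

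Partners of Cybb were called lower on day 2 as well. Of 8 genes of the phagocyte oxidase, 6 were on the array and 3 could be tested. On day 2 Ncf1, which encodes the organiser subunit p47phox, fell by 0.83 ± 0.21 (4 day 2 mice, adjusted p = 0.00789) and the small GTPase gene Rac1 fell by 0.31 ± 0.11 (adjusted p = 0.0432). Rac2, the GTPase of the oxidase in blood cells, differed by -0.23 ± 0.11 and was not called (adjusted p = 0.171). From day 2 to day 5 Ncf1 rose by 0.83 ± 0.22 (adjusted p = 0.00902) and Rac1 by 0.40 ± 0.11 (adjusted p = 0.00873). None of the 3 was called on day 1 or day 5 against control (2 and 0 at an unadjusted limma p under 0.05), with Rac1 closest on both days (-0.28 ± 0.11, adjusted p = 0.0698, and 0.09 ± 0.11, adjusted p = 0.893). With quantile normalization Rac1 was called on day 1 as well (-0.33, adjusted p = 0.0293).

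Neutrophils carry the same oxidase, and some late neutrophil genes were called lower on the same day. In the list of 15 late neutrophil genes, 7 were tested and 4 fell on day 2, among them Ltf, the granule protein lactoferrin (-1.96 ± 0.19), the surface protein gene Cd177 (-1.53 ± 0.16) and Ngp (-1.79 ± 0.23), with adjusted p of 2.21e-05 or less by limma. Not called on day 2 were Mmp9 (-0.62 ± 0.24, limma adjusted p = 0.0737) and 2 genes with means above control. These were Csf3r (0.28 ± 0.14, limma adjusted p = 0.17) and Trem1 (0.11 ± 0.13, limma adjusted p = 0.617). The mean level of the 7 per mouse lay between -1.18 and -0.782 on day 2, against -0.161 to 0.13 in control mice, -0.439 to 0.251 on day 1 and -0.267 to 0.135 on day 5. Against control, 1 rose on day 1 (Csf3r, 0.41 ± 0.14, adjusted p = 0.0414, not called with quantile normalization, adjusted p = 0.083) and 2 fell on day 5 (Csf3r and Mmp9, -0.57 ± 0.14 and -0.98 ± 0.26). The part of neutrophils in the Cybb values was not tested.

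The granulocyte precursor genes Prtn3 and Cd63 were called lower on day 1 and higher on day 5, as F13a1 and Ms4a6c were. Of 10 listed, 4 were tested, and 3 fell on day 1. These were Prtn3, which encodes the primary granule protease proteinase 3 (-1.15 ± 0.23, adjusted p = 0.00202), Plac8 (-0.66 ± 0.18, adjusted p = 0.0115) and the granule membrane gene Cd63 (-0.38 ± 0.13, adjusted p = 0.0457, or 0.0561 with the arrays centred anew). On day 5 2 of 4 rose, Prtn3 by 1.35 ± 0.23 (adjusted p = 0.000914) and Cd63 by 0.55 ± 0.13 (adjusted p = 0.0206). Plac8 was not called there (0.59 ± 0.18, limma adjusted p = 0.0725). Hp was called on neither day (-0.07 ± 0.24 on day 1 and 0.09 ± 0.24 on day 5). On day 2 only Hp, which encodes haptoglobin, was called (-0.80 ± 0.24, adjusted p = 0.0245). The mean level of the 4 per mouse was -1.06 to -0.245 on day 1, -0.529 to -0.068 on day 2 and 0.308 to 0.898 on day 5, against -0.125 to 0.273 in control mice. The part of granulocyte precursors in the F13a1 and Ms4a6c values was not tested.

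**Figure D4:**
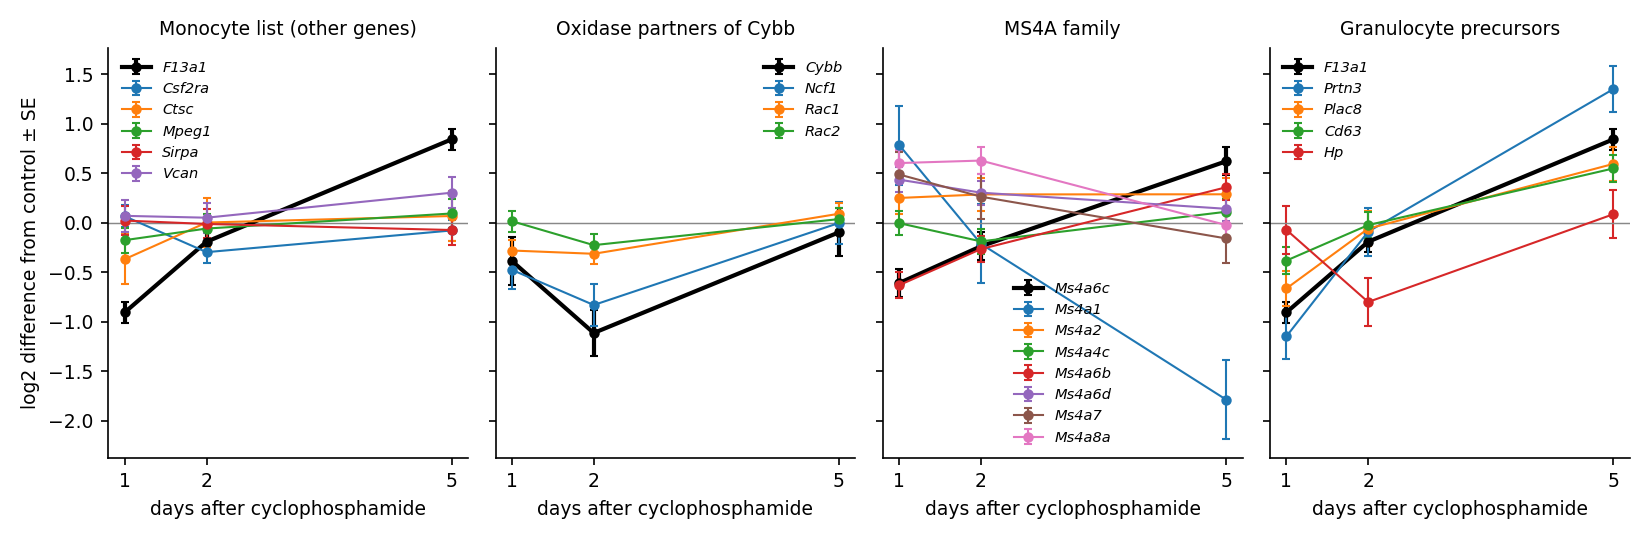
Difference from control on the log2 scale ± SE (vertical axis) by days after cyclophosphamide (horizontal axis) for the other tested monocyte genes beside F13a1, the oxidase genes beside Cybb, the MS4A family beside Ms4a6c and granulocyte precursor genes beside F13a1, with the first-named gene of each panel in black. Ncf1 has its lowest value on day 2 as Cybb does (-0.83 and -1.11), Ms4a6b lies with Ms4a6c on day 1 (-0.63 and -0.61), and Prtn3 lies below 0 on day 1 and above it on day 5 as F13a1 does.

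Within the MS4A family, 10 of the 14 other members listed were on the array and 7 were tested. Ms4a6b, a close relative of Ms4a6c, fell on day 1 by 0.63 ± 0.13 (adjusted p = 0.00242), rose from day 2 to day 5 by 0.62 ± 0.13 (adjusted p = 0.00136) and differed from control on day 5 by 0.36 ± 0.13 without a call (adjusted p = 0.199). The probe sequences were not used here, so a contribution of one paralog's RNA to the other's probe cannot be told apart from a shared course. Other relatives were called in the opposite direction on day 1: Ms4a8a rose by 0.60 ± 0.13 (adjusted p = 0.00363) and Ms4a6d by 0.44 ± 0.13 (4 mice against 4, adjusted p = 0.0209, or 0.0634 with quantile normalization). Ms4a8a was also higher on day 2 (0.63 ± 0.13, adjusted p = 0.00235), when 0 of the 7 fell. With quantile normalization Ms4a6b was called lower on day 2 (-0.38, adjusted p = 0.0286), as Ms4a6c was in that setting (-0.45, adjusted p = 0.0332). On day 5 the B cell gene Ms4a1, which encodes CD20, fell by 1.79 ± 0.40 (adjusted p = 0.0116), and 0 rose. On day 1, 1 of the 7 tested relatives was called lower as Ms4a6c was, where 8.38% of all tested were called lower.

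Relatives of the other 2 genes were poorly covered. Of 12 listed transglutaminase and coagulation genes, 11 were on the array and 2 were tested, the epidermal transglutaminase Tgm1 and Thbd, which encodes thrombomodulin. Neither was called against control on any day by limma, nor had an unadjusted p under 0.05 there. Thbd differed by 0.18 ± 0.12 on day 1 (adjusted p = 0.303) and Tgm1 by 0.20 ± 0.11 on day 5 (adjusted p = 0.544). Between treated groups Tgm1 rose from day 2 to day 5 by 0.33 ± 0.10 (adjusted p = 0.0307), and Thbd fell from day 1 to day 5 by 0.39 ± 0.12 (adjusted p = 0.0169). Of 6 listed partners of embigin, only Bsg, which encodes the related protein basigin, could be tested. Bsg was not called on any day, with -0.09 ± 0.24 on day 1, -0.45 ± 0.24 on day 2 and 0.12 ± 0.24 on day 5 (adjusted p = 0.824, 0.198 and 0.945). Of 15 regulators of myeloid cells, 3 were tested (Gfi1, Id2 and Irf4) and 0 were called by limma in the 6 comparisons, in 4 of which 1 of the 3 had an unadjusted p under 0.05. Gfi1, a repressor of monocyte genes in granulocyte precursors, had the smallest p on day 1 (-0.39 ± 0.20, adjusted p = 0.189). Spi1, which encodes PU.1, and the C/EBP genes Cebpa and Cebpb had no value.

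Macrophages and megakaryocytes also make F13a1, and macrophages make Cybb. Macrophage genes rose on day 1 in 2 of 5 cases (C1qa was called too with the arrays centred anew, 0.83, adjusted p = 0.0463) and on day 2 in 5 of 5, with Siglec1, a sialic acid receptor of marrow macrophages, higher by 1.19 ± 0.14 on day 2 (adjusted p = 8.11e-06). On day 5 0 of the 5 were called by limma, with 4 at an unadjusted p under 0.05, of which Adgre1 had the smallest (-0.37 ± 0.12, adjusted p = 0.133). Their mean level per mouse lay between 0.379 and 0.819 on day 1 and between 0.668 and 1.43 on day 2, against -0.38 to 0.216 in control mice. Of 3 tested megakaryocyte genes, the chemokine gene Ppbp rose on day 1 (0.60 ± 0.21, adjusted p = 0.0446), Itga2b, which encodes integrin alpha IIb, and Ppbp rose on day 2 (1.00 ± 0.18 and 0.90 ± 0.21). On day 5 0 of the 3 were called by limma, with 2 at an unadjusted p under 0.05. The macrophage and megakaryocyte genes called on days 1 and 2 were higher, and F13a1 was called lower on day 1 and not called on day 2. The part of macrophages and megakaryocytes in the F13a1 and Cybb values was not tested.

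B cell genes were called lower in 2 of 5 cases on day 1, 2 of 5 on day 2 and 4 of 5 on day 5, among them the pre-B cell gene Vpreb3 (-0.97 ± 0.28, -1.51 ± 0.28 and -1.72 ± 0.28), while Cd22 was called higher on days 1 and 2. The mean level of the 5 per mouse on day 5 was -1.71 to -0.901, against -0.209 to 0.128 in control mice, on the day when 3 monocyte genes were higher. Of 8 erythroid genes, 1 rose and 1 fell on day 1 (Alas2 and Icam4), 4 fell on day 2 and 0 were called on day 5, also at an unadjusted limma p under 0.05. The dendritic cell list had 1 of 4 higher on days 1 and 2, the chemokine receptor gene Ccr9, and 0 called on day 5. Nkg7, the 1 tested gene of the T and NK list, was not called against control (-0.30 ± 0.15, -0.31 ± 0.15 and 0.44 ± 0.15 on days 1, 2 and 5), but with quantile normalization it was called lower on day 1 (-0.40, adjusted p = 0.0461) and day 2 (-0.42, adjusted p = 0.0369). Quantile normalization also added calls on day 2 for the B cell gene Blnk (-0.65, adjusted p = 0.0462) and for Alas2 (0.77, adjusted p = 0.00988). The share of these cells in the values of the 4 genes was not tested.

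The genes whose values ran closest to each of the 4 were found by the root mean square difference over mice after each gene was centred on its own mean, among genes with a symbol and a value in at least 18 mice. The measure is a description, and all genes share the same mice and arrays. Nearest to F13a1 were Ms4a6c (0.283 over 19 mice), Plac8 (0.302), the urate and glucose transporter gene Slc2a9 (0.326), Arsb, which encodes a lysosomal sulfatase (0.331), and the complex I gene Ndufv2 (0.337). The median over 2988 genes was 0.658, and the root mean square deviation of F13a1 from its own mean was 0.637. F13a1 thus had another of the 4 genes as its nearest neighbour on this measure. The differences from control on days 1, 2 and 5 were -0.66, -0.06 and 0.59 for Plac8, and -0.47, -0.05 and 0.48 for Slc2a9. They were -0.83, -0.69 and 0.39 for Arsb and -0.81, -0.51 and 0.19 for Ndufv2, beside -0.90, -0.19 and 0.84 for F13a1.

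Nearest to Ms4a6c were its relative Ms4a6b (0.221), Ndufv2 (0.242), the lysosomal amidase gene Naaa (0.246), C1galt1c1, which encodes a chaperone of a glycosyltransferase (0.246), and Ufc1, an enzyme of ufmylation (0.254), with F13a1 in place 22 (0.283) and a median of 0.524. Nearest to Emb were Cyp4f16 (0.157), the lipid droplet gene Bscl2 (0.191), App, which encodes the amyloid precursor protein (0.193), Tma16 (0.193) and Ntrk2 (0.195), with a median of 0.354. Emb itself varied little, with a root mean square deviation of 0.268, so many genes lie near it. Nearest to Cybb were the peroxidase gene Prdx2 (0.306 over 16 mice), Myo7b (0.307), Cln8 (0.312), Serpinb9g (0.317) and Pdlim5 (0.321), with a median of 0.611. Prdx2 had differences from control of -0.39 on day 1, -0.78 on day 2 and 0.01 on day 5, beside -0.39, -1.11 and -0.10 for Cybb. None of the other 3 genes was among the 5 nearest to Emb or to Cybb. Among the 2988 genes compared with Emb, Ms4a6c took place 1848, F13a1 place 2776 and Cybb place 2937. Among those compared with Cybb, Ms4a6c took place 1850, Emb place 2344 and F13a1 place 2346. All of these differences lay above the median for Emb or Cybb. Seen from F13a1, Emb took place 363 and Cybb place 2060, and seen from Ms4a6c they took places 195 and 2447.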

How the data were processed

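Marrow RNA of 20 mice was measured on 40 two-colour arrays. The authors' deposited values are 1 log ratio per probe and array, Cy5 (mouse) over Cy3 (pool), taken as log2. Scanner, background correction, normalization, probe filter and log base are not stated in the labels. Array medians lay between -0.0151 and 0.0067, and 40.7% to 69.7% of the probes of an array were blank; no value was filled in. Of 13443 probes, 10032 had 1 gene symbol, 170 had several and 3241 had no entry, and 10028 symbols matched RefSeq.

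The 2 arrays of a mouse were averaged where both gave a value, then the probes of a gene. Genes and unnamed probes with a value in at least 3 mice of every group (5297) were fitted with limma 3.58.1 (R 4.3.3), 1 mean per group and no pseudocount, and eBayes (prior df 7.8, median SD after moderation 0.2). The limma step was tested on simulated data, for day 1 against control. Within-mouse differences used exact permutation tests (scipy 1.17.1). The labels give the mice of a group as independently harvested biological replicates and number them 1 to 5. Genes named are the 4 members, up to 3 called members of each of 14 lists per comparison (otherwise the one with the smallest p) and the 5 nearest genes of each member; a few untested list members and those drawn in the figures are named besides. The members and lists were chosen with earlier results of these data known. Alternatives covered arrays, scaling, filters, the fit, the prior and single mice left out.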

Additional observations from a re-analysis of the deposited data

Results flagged for a closer look

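F13a1 in day 5 mouse 3 stood apart from its group. Its log2 ratio was 0.903, the next highest of the 5 day 5 mice was 0.633, and the gap took up 0.785 of the range of the group, beyond the limit of 0.71 for 5 values. Of 16 groups (4 genes in 4 groups of mice) 1 met this limit, and chance marks about 1 in 20. Without this mouse the difference of F13a1 between day 5 and control was 0.78, and it was called. The same mouse had the highest day 5 value of Ms4a6c (1.44) and of Emb (0.780) and the lowest of Cybb (-0.172).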

How the results depend on the processing

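The calls of F13a1 on days 1 and 5, Ms4a6c on day 1 and Cybb on day 2 kept their direction and their side of the threshold in all alternatives that gave a value (12 for F13a1, 11 for the other 2) and in the 20 fits without 1 mouse. Ms4a6c and Cybb have no value when all 5 mice of every group must be measured. With quantile normalization the Ms4a6c difference was -0.445 on day 2 (adjusted p = 0.0332, now called) and 0.354 on day 5 (adjusted p = 0.237), and with the 2 groups alone it was 0.621 on day 5 (adjusted p = 0.0546), no longer called; the cause was not tested. With 1 mouse left out, Ms4a6c on day 5 ran from 0.468 to 0.759 (18 of 20 called) and Emb on day 5 from 0.464 to 0.586 (17 of 20). Emb on day 2 ran from 0.239 to 0.369 and was called without day 2 mouse 5 (adjusted p = 0.0415). Emb on day 1 ran from -0.0224 to 0.0978, with the sign turned without day 1 mouse 4. Cybb on day 5 ran from -0.229 to 0.0527, with the sign turned without control mouse 3 (0.00937) or day 5 mouse 3. The 8 called differences between 2 genes were all lost, in the same direction, with either technical replicate alone. Differences between 2 genes that turned sign were not called in any setting: with 1 mouse left out, F13a1 minus Ms4a6c on day 2 ran from -0.0950 to 0.238, Ms4a6c minus Emb on day 5 from -0.0253 to 0.154 and Ms4a6c minus Cybb on day 1 from -0.233 to 0.0722, the last also 0.163 with the second technical replicate alone. Mice of different groups share only a number: over 30 pairs of same-numbered mice, deviations from the group means correlated at -0.391 to 0.33, over 0.1 in 8. With the replicate block the numbers called on days 1, 2 and 5 were 998, 992 and 134, the F13a1 difference on day 1 was -0.90, and no call of the 4 genes changed. With 1 mouse left out, the numbers called were 611 (without day 1 mouse 3) to 1313 on day 1, also 641 without day 1 mouse 2, 592 (without day 2 mouse 1) to 1123 on day 2, and 77 to 167 between day 1 and day 2 (the highest without day 5 mouse 4). With 40 arrays and the mouse as a random block they were 210 on day 5 and 241 between day 1 and day 2, and with those 2 groups alone 65.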
